A study of Mus musculus with 2 samples.

Results

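The mitochondrial genome carries genes for 7 subunits of complex I: mt-Nd1, mt-Nd2, mt-Nd3, mt-Nd4, mt-Nd4l, mt-Nd5 and mt-Nd6. They were chosen by symbol, and all 7 had a row among the 22587 gene symbols measured. Single cells were profiled from the hippocampus of mice after sorting for YFP and for exclusion of propidium iodide. The first library was made from Opa1 cKO mice, which carried Nestin-CreERT2, the Rosa26YFP reporter and floxed Opa1, and the other from CT mice, which carried the Cre and the reporter and which the labels call WT. Each library pooled cells of 3 mice, which were given tamoxifen (TAM) at 8 weeks and collected at 12 weeks of age, 4 weeks post-TAM. The strain label is the same for both samples, and that CT mice lacked the floxed allele is stated in the sorting protocol and the study's methods. Both groups carried the Cre driver and received TAM. Recombination depended on the Nestin promoter and YFP marked cells that had recombined the reporter, so that the loss of Opa1 in each sorted cell was not measured.

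Complex I takes electrons from NADH, passes them to ubiquinone and pumps protons across the inner mitochondrial membrane. Its matrix arm, which holds the flavin and the iron-sulfur clusters, is made from nuclear genes alone, whereas the subunits read from mitochondrial DNA form the core of the membrane arm. ND1 lies at the junction of both arms beside the quinone site, ND2, ND4 and ND5 are the antiporter-like proton channels, and ND3, ND4L and ND6 lie between ND1 and ND2. The genes other than mt-Nd6 are cut from the long heavy-strand transcript, while mt-Nd6 is the sole mRNA of the light strand. OPA1 fuses the inner membrane and shapes the cristae in which the respiratory complexes sit.

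The assay primed cDNA on poly(A), so an mRNA with a poly(A) tail is mainly caught at its end. The tails and true ends of the members were not measured. The annotated ends are shown for mt-Nd1, mt-Nd2 and mt-Nd4, the members with the most molecules, as the last 60 bases of each transcript in GENCODE M21 (mm10, plus strand). Capitals mark the end of the reading frame, which in mt-Nd4 is a single base that the poly(A) tail completes to a stop codon.
mt-Nd1, chrM:3648-3707: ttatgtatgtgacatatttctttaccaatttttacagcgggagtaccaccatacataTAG
mt-Nd2, chrM:4892-4951: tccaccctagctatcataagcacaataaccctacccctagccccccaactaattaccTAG
mt-Nd4, chrM:11485-11544: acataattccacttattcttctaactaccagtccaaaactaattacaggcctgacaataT
The next sequences hold the junctions at which 2 members share bases, with the shared bases in capitals (plus strand). The frames of mt-Nd4l and mt-Nd4 share 7 bases on the same strand, and they are cut out as 1 mRNA, so a molecule could be given to either. The ends of mt-Nd5 and mt-Nd6 share 14 bases on opposite strands.
mt-Nd4l into mt-Nd4, chrM:10127-10213: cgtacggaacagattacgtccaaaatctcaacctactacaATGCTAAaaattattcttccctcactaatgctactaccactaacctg
mt-Nd5 against mt-Nd6, chrM:13522-13595: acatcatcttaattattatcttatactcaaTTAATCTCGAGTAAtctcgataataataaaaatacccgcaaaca

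On the mitochondrial chromosome the order was mt-Nd1 (chrM:2751-3707), mt-Nd2 (chrM:3914-4951), mt-Nd3 (chrM:9459-9806), mt-Nd4l (chrM:9877-10173), mt-Nd4 (chrM:10167-11544) and mt-Nd5 (chrM:11742-13565), all on the plus strand, with mt-Nd6 (chrM:13552-14070) on the minus strand. They have no introns and the annotation gives no UTR. All but mt-Nd1 had a near-identical copy among the annotated pseudogenes of the nuclear genome. Copies of mt-Nd3 (Gm28438, 99.7% identical over 345 bases), mt-Nd4l (Gm10222, 100% over 294) and the first part of mt-Nd4 (Gm28439, 100% over 876) lie side by side on chromosome 1. The copy of mt-Nd2 (Gm13339) was 96.7% identical over 510 bases, and mt-Nd5 and mt-Nd6 had copies of up to 95.2% (Gm4076) and 93.6% (Gm11408). The counts of these 6 members are therefore uncertain by an unknown number of reads from the copies, which were not analysed here.

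Molecules were counted as unique molecular identifiers (UMIs). The CT library held 4634 barcodes and the Opa1 cKO library 6475, of which 4186 and 6121 passed limits on genes and mitochondrial share. Of these, 1790 and 3764 had at least 1 YFP UMI and were kept, with medians of 2555 and 3008 UMIs. The cell numbers stated in the study lie above both sets of counts, and how detectable YFP was defined there is not given in the sources used here. A count of 36 barcodes occurred in both libraries, and without them the log2 ratio of the complex I sum in NSC pool-like cells (clusters 0 to 2) was −1.29. With all cells kept whether or not they had a YFP UMI, that ratio was −1.07. Cells were clustered without the 13 mitochondrial mRNAs and named from marker genes. The NSC pool-like class was made up of cluster 0, with 25 CT and 1888 Opa1 cKO cells, and of clusters 1 and 2, with 1348 and 958 cells. NSC pool markers summed to 65904 CPM in its CT cells and 58525 CPM in its Opa1 cKO cells, with none of the 10 at 0. Of other types, erythrocyte markers summed to 282 and 9.36 CPM, oligodendrocyte precursor markers to 111 and 307 CPM with 2 of 6 at 0, and oligodendrocyte markers to 384 and 438 CPM, and their part in the results was not tested. Over the rest, cluster 0 was led by Gdf15, Nupr1, Fibin, Hmox1, Ddit3 and Chac1, most of them stress genes. Cluster 1 was led over the rest by Slc7a10, mt-Co3, Rnase1, Tmem176a, Apoc1 and mt-Nd4, although mitochondrial mRNAs did not enter the clustering. On that basis cluster 2 was led by Slitrk2, Insig1, Sema4b, Ogdhl, Clasp2 and Spry2. Over the clusters of other types, cluster 0 was led by Acsbg1, Aldoc, Timp4, Luzp2, Hsd11b1 and Slc7a11. Against the same clusters, cluster 1 was led by Slc7a10, Cxcl14, Hsd11b1, Cldn10, Scrg1 and F3. Cluster 2 was led in the same way by Slitrk2, Slc7a10, Cxcl14, Lgr4, Hsd11b1 and Scrg1. The NSC pool markers included Aldoc, Slc1a2, Slc1a3, Gja1 and Aqp4, and there was no separate list for astrocytes. Astrocytes and stem cells within this class were therefore not told apart. Values are UMIs per 1000000 UMIs of the class (CPM), and ratios are log2 of Opa1 cKO over CT. With 1 library per genotype there was no test, and the 95% intervals in parentheses cover counting error only, not the spread between cells, mice or library preparation. Between NSC pool-like cells, the share of UMIs from the 7 members had a coefficient of variation of 51.4% in CT and 109% in Opa1 cKO. Intervals that included this spread would be wider. Opa1 itself was counted 70 times in the CT and 68 times in the Opa1 cKO cells of the NSC pool-like class, or 18.6 CPM (14.5 to 23.5) and 7.31 CPM (5.68 to 9.27), a log2 ratio of −1.35 (−1.85 to −0.85). The assay counts the end of the transcript, which need not lie in the deleted part, so these values do not check the deletion itself.

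In the 1373 CT and 2846 Opa1 cKO NSC pool-like cells, mRNA of the 7 subunits was lower in Opa1 cKO, unevenly between genes. Their sum stood at 12251 CPM (12139.7 to 12364) in the CT and 4989.7 CPM (4944 to 5035) in the Opa1 cKO library, for a log2 ratio of −1.30 (−1.31 to −1.28). For mt-Nd1, the subunit at the quinone site, 22251 CT and 21065 Opa1 cKO molecules were found, giving 5919 CPM (5841 to 5997) against 2266 CPM (2235 to 2296), and the log2 ratio was −1.39 (−1.41 to −1.36). mt-Nd1 in Opa1 cKO thus stood at 38.3% of its CT level. Of mt-Nd4, a proton channel subunit, 17385 CT and 15888 Opa1 cKO molecules were found, giving 4624 CPM (4556 to 4694) against 1709 CPM (1682 to 1736). Its log2 ratio of −1.44 (−1.47 to −1.41) was the lowest of the group. Together these members held most molecules of the group, so the sum mainly followed them.

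The other proton channel subunits were lower by less. Of mt-Nd2 4147 CT and 5833 Opa1 cKO molecules were found, giving 1103 CPM (1069.8 to 1137) against 627 CPM (611 to 644), and its log2 ratio was −0.81 (−0.87 to −0.76). For mt-Nd5, whose product lies at the far end of the membrane arm, 1076 CT and 1499 Opa1 cKO molecules were found, giving 286 CPM (269 to 304) against 161 CPM (153 to 169.6), at a log2 ratio of −0.83 (−0.94 to −0.71). The intervals of both overlapped each other, and neither reached those of mt-Nd1 and mt-Nd4. Of the small subunits between ND1 and ND2, mt-Nd3 had a log2 ratio of −0.68 (−0.81 to −0.55), where 813 CT and 1254 Opa1 cKO molecules were found, giving 216 CPM (202 to 232) against 135 CPM (128 to 143). mt-Nd4l was counted at nearly the same level in both libraries, for 327 CT and 748 Opa1 cKO molecules were found, giving 87.0 CPM (77.8 to 96.9) against 80.4 CPM (74.8 to 86.4), or a log2 ratio of −0.11 (−0.30 to 0.08). Its neighbour on the same mRNA, mt-Nd4, thus had the lowest ratio of the group and mt-Nd4l the highest. The end of that mRNA lies in mt-Nd4, and where the molecules given to mt-Nd4l were primed was not measured. The mt-Nd4l count therefore need not follow the level of the shared mRNA. mt-Nd6 was counted rarely, as 58 CT and 108 Opa1 cKO molecules were found, giving 15.4 CPM (11.7 to 19.9) against 11.6 CPM (9.53 to 14.0), and its log2 ratio of −0.41 (−0.88 to 0.08) did not allow a direction at this depth.

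**Figure D1:**
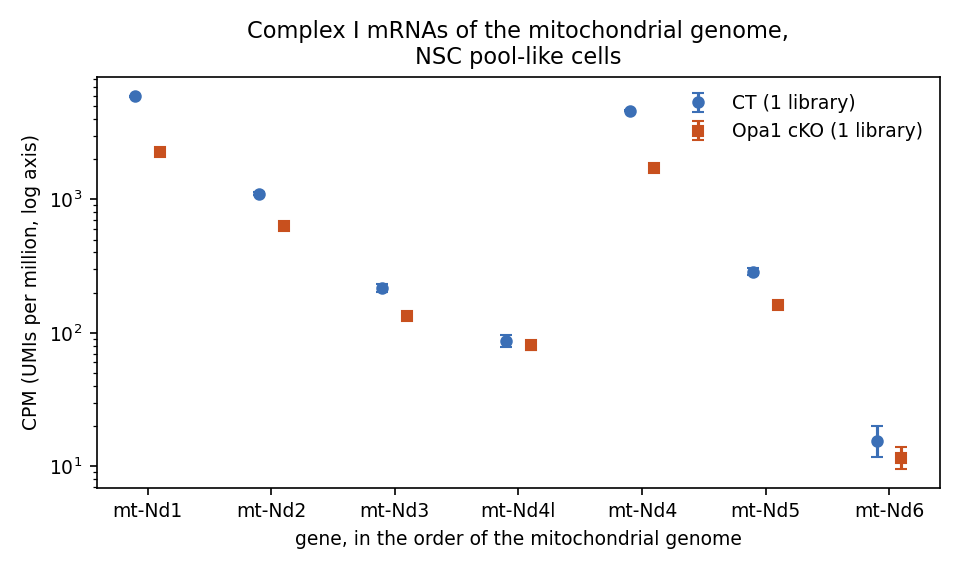
CPM (UMIs per 1000000 UMIs, log axis) of each member in NSC pool-like cells of the CT library (circles) and the Opa1 cKO library (squares), in the order of the mitochondrial genome, with exact 95% Poisson intervals. The Opa1 cKO symbols lie below the CT symbols for mt-Nd1, mt-Nd2, mt-Nd3, mt-Nd4 and mt-Nd5, while those of mt-Nd4l and mt-Nd6 have overlapping intervals.

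Past a log2 ratio of −1 were 2 of the 7 members, mt-Nd1 and mt-Nd4, against 3.69% of the 11400 genes with at least 20 UMIs in these cells, of which 4.68% were past 1. The median of the members was −0.81 and that of all such genes 0.048. Between the lowest and the highest ratio, over the 6 members with at least 100 UMIs in each library, the distance was 1.32 on the log2 scale, and 0.76 without mt-Nd4l. Among the 5 other mitochondrial mRNAs with as many UMIs in both libraries, ratios ran from −1.89 for mt-Co3 to −0.96 for mt-Co2, a distance of 0.93. These encode subunits of complexes III, IV and V, and their sum with that of mt-Atp8 had a log2 ratio of −1.54 (−1.55 to −1.53), below that of the complex I mRNAs. mt-Atp8 itself, left out of that distance with 34 CT and 154 Opa1 cKO UMIs, was higher in Opa1 cKO at 0.87 (0.33 to 1.45). It shares 43 bases with mt-Atp6, whose log2 ratio was −1.32 (−1.34 to −1.31). Where the molecules given to mt-Atp8 were primed was not measured. The complex I part of all mitochondrial mRNA was 20.8% (20.7 to 21.0) in CT and 23.7% (23.5 to 23.9) in Opa1 cKO.

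The order of levels per length was the same in both libraries. In CT NSC pool-like cells mt-Nd1 was at 6185 CPM per kilobase of transcript, mt-Nd4 at 3356, mt-Nd2 at 1063, mt-Nd3 at 621, mt-Nd4l at 293, mt-Nd5 at 157 and mt-Nd6 at 29.7 CPM per kilobase. In Opa1 cKO the levels were 2367 for mt-Nd1, 1240.0 for mt-Nd4, 604 for mt-Nd2, 388 for mt-Nd3, 271 for mt-Nd4l, 88.4 for mt-Nd5 and 22.4 CPM per kilobase for mt-Nd6. Neighbours in this order were apart by more than their counting intervals. Members at a higher level per kilobase tended to have lower ratios, although mt-Nd5, at a lower level per kilobase than mt-Nd4l, had the lower ratio of the pair. Without division by length mt-Nd5 was above mt-Nd4l, at 286 against 87.0 CPM in CT, so the exception of this pair came with the division. Other pairs were out of order in CPM as well. mt-Nd4 lay below mt-Nd1, mt-Nd5 below mt-Nd2 and mt-Nd6 below mt-Nd4l, each with the lower ratio. The intervals of the ratios overlapped within each of these pairs. The assay mainly catches molecules at their ends, so counts need not rise with length, and levels per kilobase are a description only. The Spearman correlation of the log2 ratio with the CT level in CPM was −0.92 over the 13 mitochondrial mRNAs and −0.89 over the 7 members. Across all 13 mitochondrial mRNAs the Spearman correlation of the log2 ratio with the CT level per kilobase was −0.82 (n = 13 genes), and with transcript length it was −0.68. These genes share 2 libraries and the CT level enters both measures. The share of A in the last 100 bases (rho = 0.31, n = 13) and the place along the heavy-strand transcript (rho = −0.028, n = 12) had weaker relations with the ratio.

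The difference was largest in cluster 0, where the sum had a log2 ratio of −2.15 (−2.26 to −2.04) between the libraries with 25 cells on the CT side. Within the Opa1 cKO library alone, the 1888 cells of this cluster had 2601 CPM of complex I mRNA and the 958 cells of clusters 1 and 2 had 10400.0 CPM, 4.0-fold apart (interval of the log2 ratio −2.03 to −1.97). mt-Nd1 stood at 1119 against 4861 CPM and mt-Nd4 at 815 against 3733 CPM, log2 ratios of −2.12 and −2.20. The ratios of the others were −1.88 for mt-Nd3, −1.52 for mt-Nd2, −1.16 for mt-Nd5 and −0.83 (−1.04 to −0.62) for mt-Nd4l. mt-Nd4l was thus lower in cluster 0 too, whereas the interval of mt-Nd6 (−0.36, −0.94 to 0.25) held 0. The cells of cluster 0 were chosen for their nuclear transcripts, and these ratios compare cells of 1 library.

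In clusters 1 and 2, which both libraries filled, the libraries were much closer. By construction this comparison leaves out the cells of cluster 0, which were 1888 in Opa1 cKO and 25 in CT. CT reached 12262 CPM (12149 to 12375) and Opa1 cKO 10400.0 CPM (10282 to 10519) for the sum, at a log2 ratio of −0.24 (−0.26 to −0.22). mt-Nd1 at −0.28 (−0.32 to −0.25) and mt-Nd4 at −0.31 (−0.35 to −0.28) were still lower. mt-Nd3 at 0.33 (0.19 to 0.48) and mt-Nd4l at 0.41 (0.19 to 0.64) were higher in Opa1 cKO, and the intervals of mt-Nd2 (0.045), mt-Nd5 (−0.13) and mt-Nd6 (−0.14) held 0. Between these clusters the sum had a log2 ratio of −0.07 (−0.10 to −0.044) in cluster 1 and −0.68 (−0.72 to −0.64) in cluster 2. The 25 CT cells of cluster 0 had 11552 CPM, near the 12159 and 12414 CPM of CT clusters 1 and 2.

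**Figure D2:**
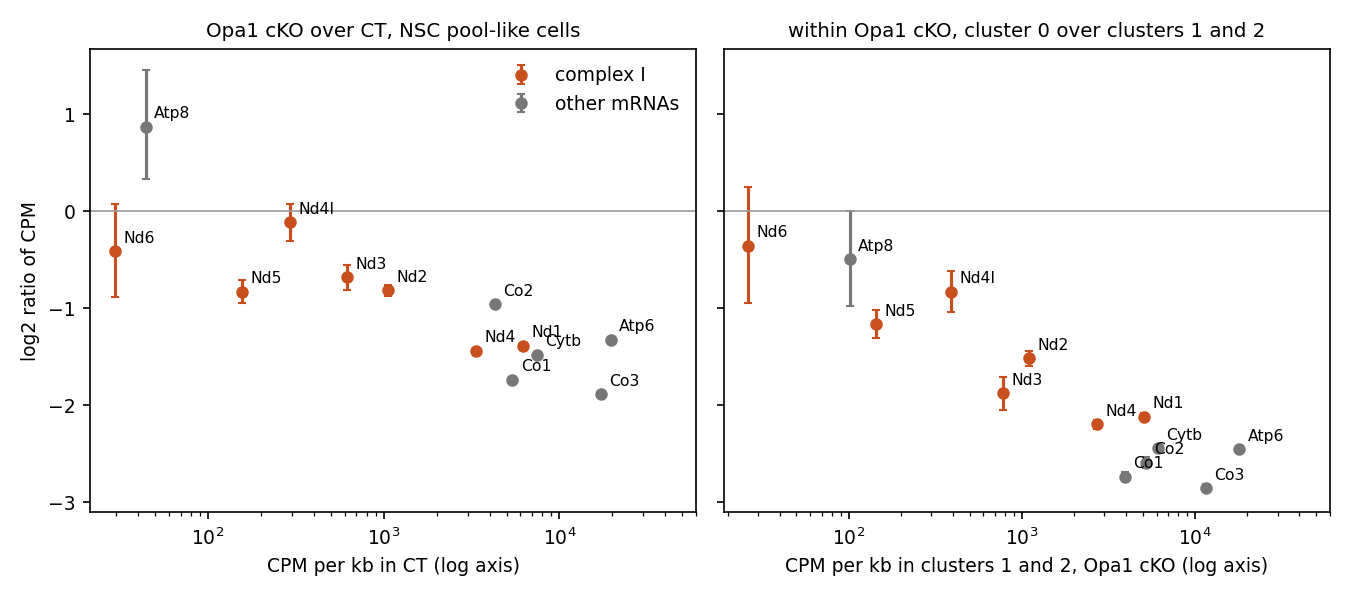
Log2 ratio of CPM (vertical axis) of the 13 mitochondrial mRNAs against CPM per kilobase (log axis), for Opa1 cKO over CT in NSC pool-like cells (left) and, within the Opa1 cKO library, for cluster 0 over clusters 1 and 2 (right), with exact 95% intervals. The complex I mRNAs are in orange and the other mRNAs in gray, and in both panels mRNAs at a higher level tend to have lower ratios, with exceptions such as mt-Atp6, and with mt-Nd1 and mt-Nd4 lowest among the members.

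Cell by cell, the 7 mRNAs made up a median of 1.10% of a CT cell's UMIs, with quartiles of 0.784% and 1.49%, and of 0.257% of an Opa1 cKO cell's UMIs, with quartiles of 0.125% and 0.770%. The upper quartile of the Opa1 cKO cells lay just under the lower quartile of the CT cells, and 1177 of 2846 (41.4%, 39.5 to 43.2) were under 0.2%. In CT 10 of 1373 cells (0.728%, 0.350 to 1.34) were under that limit. No UMI of any member was found in 109 Opa1 cKO cells (3.83%, 3.16 to 4.60) and in 1 CT cell (0.0728%, 0.00184 to 0.405), although Opa1 cKO cells were deeper, with a median of 2946 against 2490 UMIs.

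When each cell was thinned to 1500 UMIs, with 94 shallower CT and 238 shallower Opa1 cKO cells dropped, the share of cells with at least 1 UMI of mt-Nd1 went from 99.1% (98.5 to 99.6) in CT to 74.2% (72.5 to 75.9) in Opa1 cKO. Unthinned it was 99.6% and 85.5%. For mt-Nd4 it went from 98.5% (97.7 to 99.1) in CT to 68.3% (66.4 to 70.0) in Opa1 cKO and for mt-Nd2 from 72.7% (70.2 to 75.1) in CT to 50.3% (48.4 to 52.2) in Opa1 cKO. mt-Nd4l was found in 11.8% and 11% of thinned cells, with overlapping intervals. As a gauge of free RNA in the droplets, Mbp, a myelin gene of oligodendrocytes, was found in 5.16% and 6.75% of the same thinned cells. The mural marker Vtn was found in 4.61% and 5.33%, and the ependymal marker Ccdc153 in 0.391% and 1.23%. mt-Nd6, with 2.35% and 1.65%, lay below Mbp and Vtn and above Ccdc153. The level of free mt-Nd6 RNA was not measured, so its presence in single cells cannot be read.

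**Figure D3:**
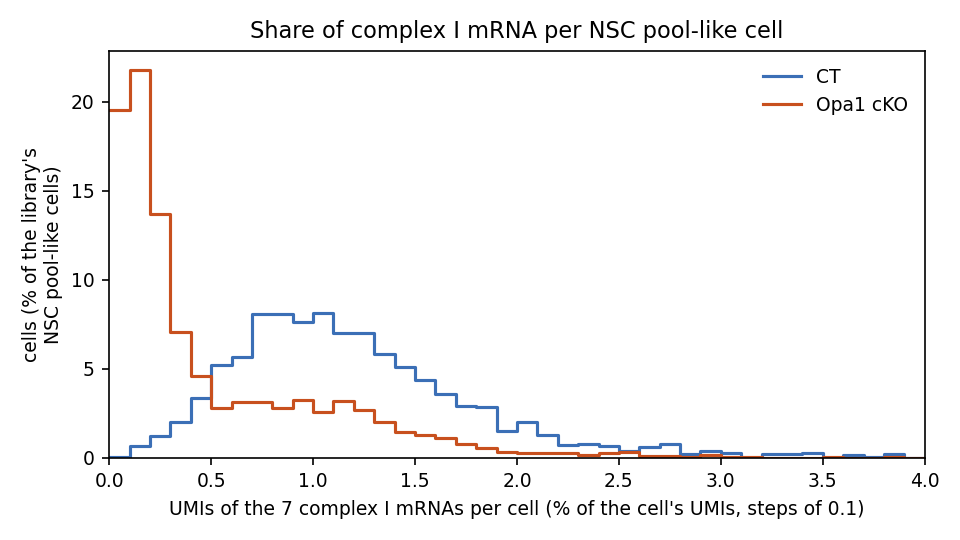
Share of a cell's UMIs taken by the 7 complex I mRNAs (horizontal axis, in steps of 0.1%) in NSC pool-like cells, as percent of the cells of each library, with the few cells above 4% not drawn. The CT cells form 1 broad peak around their median of 1.10%, and the Opa1 cKO cells have a tall peak under 0.3% and a tail through the CT range.

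Cells were next grouped by the share of UMIs from all 13 mitochondrial mRNAs, and within each group the part of those UMIs that came from complex I was read. In CT NSC pool-like cells this part was 19.9% (19.4 to 20.4) in cells with a mitochondrial share of 2 to 4%, 20.8% (20.6 to 21.0) at 4 to 8% and 21.3% (21.0 to 21.6) at 8 to 20%. In Opa1 cKO it was 21.1% (20.7 to 21.6) at 8 to 20% and 21.1% (20.8 to 21.3) at 4 to 8%. It was higher in cells with less mitochondrial mRNA, with 23.4% (22.8 to 23.9) at 2 to 4%, 30.9% (30.1 to 31.8) at 1 to 2%, 34.4% (33.6 to 35.2) at 0.5 to 1% and 35.5% (34.6 to 36.4) under 0.5%. The last group held 1017 Opa1 cKO cells. CT had 1, 2 and 12 cells in the 3 lowest groups, too few to be read. When cells were grouped by the other 6 mRNAs instead, the part in Opa1 cKO was 36.8% under 0.5% and 20.8% at 4 to 8%. These 6 are in the denominator of the part, so choosing cells with low counts of them can raise it through counting error alone.

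The members shifted to different degrees. Within the Opa1 cKO library, from cells at 4 to 8% to cells under 0.5%, the part of mt-Nd2 went from 2.28% to 6.58% (2.89-fold), that of mt-Nd5 from 0.521% to 1.97% (3.78-fold) and that of mt-Nd4l from 0.227% to 1.13% (5.0-fold). mt-Nd6 went from 0.0238% to 0.195% on 24 and 21 UMIs. mt-Nd1 went from 9.96% to 13.7%, mt-Nd4 from 7.54% to 11% and mt-Nd3 from 0.540% to 0.911%, which is 1.37-, 1.46- and 1.69-fold. Thus mt-Nd1, the only member without an annotated nuclear copy, shifted least, and mt-Nd4 and mt-Nd3, which had copies, came next. The value for mt-Nd4l rested on 229 and 122 UMIs. What part reads from the copies or free RNA had in these shifts was not tested. In CPM every member was lower in the cells under 0.5%, as the grouping fixes for the sum. mt-Nd1 was 429 against 5611 CPM (13.1-fold lower), mt-Nd4 was 12.3-fold, mt-Nd3 10.6-fold, mt-Nd2 6.21-fold, mt-Nd5 4.75-fold and mt-Nd4l 3.59-fold lower.

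**Figure D4:**
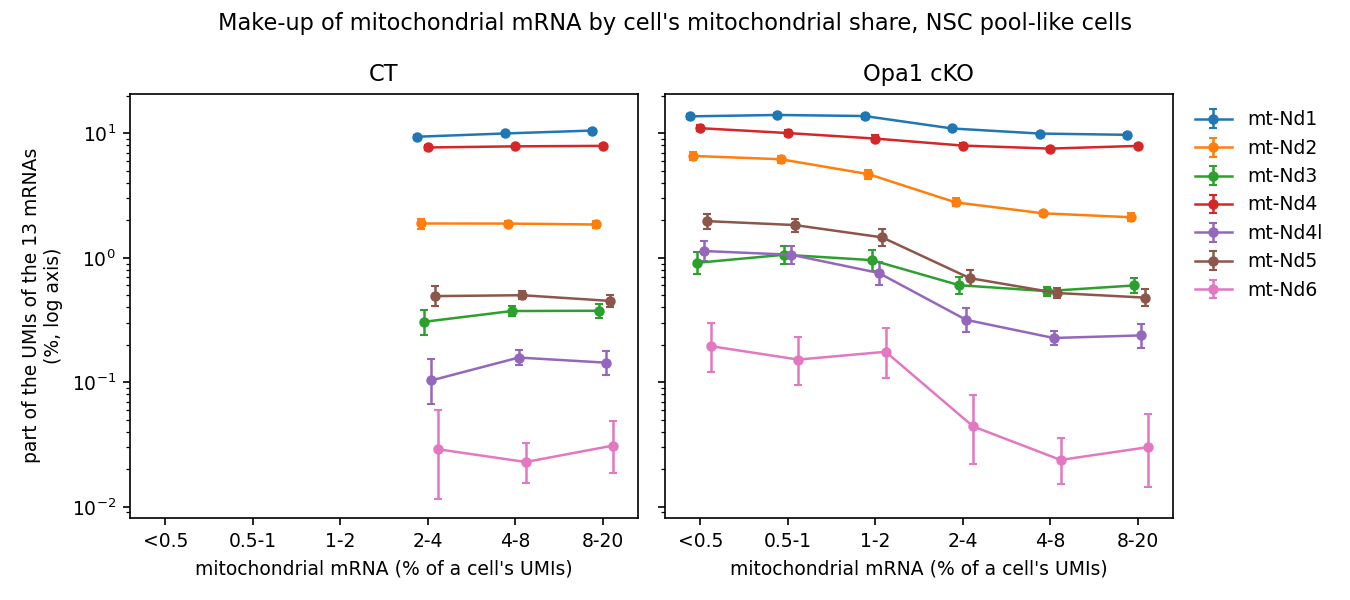
Part of the UMIs of the 13 mitochondrial mRNAs that came from each member (percent, log axis) in NSC pool-like cells grouped by their mitochondrial share (horizontal axis), for CT (left) and Opa1 cKO (right), with exact 95% binomial intervals and groups under 20 cells left out. The CT lines change little, whereas in Opa1 cKO the lines are higher at low shares, mt-Nd2, mt-Nd4l and mt-Nd5 more than mt-Nd1 and mt-Nd4.

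At like mitochondrial shares the libraries could be compared in 3 groups. At 2 to 4% (307 CT and 261 Opa1 cKO cells) the part of mt-Nd4l had a log2 ratio of 1.62 (0.95 to 2.33), mt-Nd3 of 0.98 (0.57 to 1.40), mt-Nd2 of 0.56 (0.39 to 0.74), mt-Nd5 of 0.48 (0.13 to 0.83) and mt-Nd1 of 0.22 (0.14 to 0.30). At 4 to 8% (841 and 546 cells) mt-Nd3 at 0.53 (0.35 to 0.71), mt-Nd4l at 0.52 (0.25 to 0.80) and mt-Nd2 at 0.27 (0.19 to 0.36) were still a larger part in Opa1 cKO, and mt-Nd1 at −0.0022 (−0.04 to 0.035) was not. mt-Nd4 at −0.06 (−0.10 to −0.018) was a slightly smaller part. mt-Nd2, mt-Nd3 and mt-Nd4l also had intervals above 0 at 8 to 20%, with 0.67 (0.39 to 0.95) for mt-Nd3, 0.73 (0.27 to 1.18) for mt-Nd4l and 0.19 (0.06 to 0.33) for mt-Nd2. mt-Nd1 was a smaller part of mitochondrial mRNA in Opa1 cKO there, at −0.11 (−0.18 to −0.05), the reverse of its direction at 2 to 4%. Over all barcodes, with no filter and no class, the complex I part at a share of 1 to 2% was 18.1% (16.4 to 19.8) in 73 CT and 27.9% (27.4 to 28.5) in 783 Opa1 cKO barcodes, which may differ in cell type.

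Of the 6 classes, ependymal-like cells had the lowest ratio of the complex I sum and oligodendrocyte-like cells were level. In ependymal-like cells (39 CT and 244 Opa1 cKO cells) it went from 10109 CPM (9523 to 10723) to 2968 CPM (2859 to 3079), a log2 ratio of −1.77 (−1.87 to −1.67). mt-Nd4 had the lowest ratio there with −2.43 (−2.59 to −2.28), and mt-Nd4l, at 16 and 48 UMIs, was lower too with −1.53 (−2.37 to −0.62). In progenitor and neuron-like cells (154 CT and 316 Opa1 cKO cells) the sum went from 7598 CPM to 4048 CPM, or −0.91 (−0.97 to −0.84). The make-up of this class differed between the libraries, with its own 10 markers summing to 17527 and 8768 CPM in CT and Opa1 cKO and the 10 NSC pool markers to 7460.2 and 18251 CPM, none of them at 0, and the part of this in the ratios was not tested. mt-Nd1 (−1.03), mt-Nd4 (−1.07) and mt-Nd5 (−0.86) had intervals below 0, mt-Nd2 at −0.045 (−0.27 to 0.19) and mt-Nd3 at −0.06 (−0.50 to 0.40) did not, and mt-Nd4l was higher at 0.84 (0.18 to 1.55). mt-Nd6 had 10 and 3 UMIs there.

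At a finer resolution of 0.4 an activated NSC-like cluster separated, of 44 CT and 453 Opa1 cKO cells, whose sum stood at 14169 CPM against 4739 CPM, or −1.58 (−1.66 to −1.50). Its mt-Nd1 and mt-Nd4 had ratios of −1.75 and −1.83. The progenitor and neuron-like class of that clustering was at −1.25 (−1.33 to −1.16), and its mt-Nd4l at 0.32 (−0.46 to 1.14) had an interval that held 0.

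Mural-like cells (95 CT and 168 Opa1 cKO cells) differed less, from 8516 CPM to 5325 CPM or −0.68 (−0.78 to −0.58), with mt-Nd4 at −0.83 and mt-Nd1 at −0.71. Endothelial-like cells (55 CT and 89 Opa1 cKO cells) were at −0.30 (−0.39 to −0.21). Mural markers in that cluster summed to 15909 and 13477 CPM in CT and Opa1 cKO, near its endothelial markers with 15342 and 14343 CPM, and the mural marker Vtn was found in 96.4% and 94.4% of its cells. The part of this in the ratio was not tested. Globins were among its leading genes, with erythrocyte markers at 42.9 and 27701 CPM, and without the cells of 10 or more globin UMIs the value was −0.25 (−0.34 to −0.16). mt-Nd6 had 0 UMIs in its CT cells, for which the floor of 3 counts stands at 12.9 CPM and the upper 95% bound at 15.8 CPM, and 6 UMIs in Opa1 cKO. In oligodendrocyte-like cells (74 CT and 101 Opa1 cKO cells) CT stood at 8942 CPM (8599.9 to 9294) and Opa1 cKO at 8897 CPM (8619 to 9181) for the sum, or −0.0073 (−0.08 to 0.07). Yet single members moved in both directions there, with mt-Nd1 at −0.16 (−0.26 to −0.06), mt-Nd2 at 0.41 (0.15 to 0.67) and mt-Nd3 at 1.09 (0.57 to 1.63) on 41 and 132 UMIs.

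**Figure D5:**
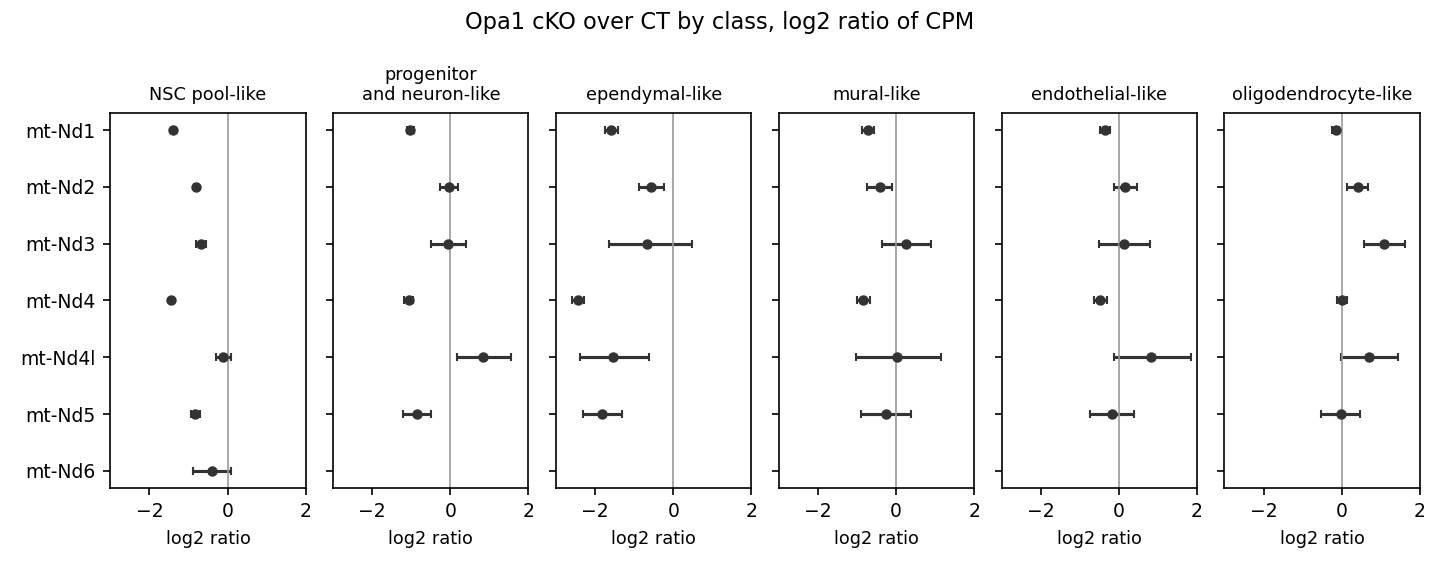
Log2 ratio of CPM, Opa1 cKO over CT, of each member in 6 classes, with exact 95% intervals, and points with fewer than 10 UMIs in either library not drawn. Ratios of mt-Nd1 and mt-Nd4 lie to the left of 0 in the NSC pool-like, progenitor and neuron-like, ependymal-like, mural-like and endothelial-like panels, and in the oligodendrocyte-like panel mt-Nd2 and mt-Nd3 lie to the right.

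As a part of all mitochondrial mRNA, mt-Nd2 was larger in Opa1 cKO in each of the 6 classes, with log2 ratios of the part from 0.43 to 1.94 and every interval above 0. mt-Nd3 (from 0.63 to 1.85) and mt-Nd4l (from 0.75 to 2.103) had intervals above 0 in 5 classes each. mt-Nd1 had such intervals in 4 classes and one below 0 in oligodendrocyte-like cells, and mt-Nd4 in 2. The complex I part as a whole was 16.0% and 26.6% in ependymal-like cells, the widest gap, and 18.0% and 18.6% in oligodendrocyte-like cells, the narrowest.

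Nuclear genes of the same complex did not follow the mitochondrial members in NSC pool-like cells. Of 20 nuclear membrane arm and 16 matrix arm subunits with at least 20 UMIs, none was past a log2 ratio of 1 in either direction. Of all 11400 genes 3.69% were past −1 and 4.68% past 1, so counts of 0 in lists this short are near the shares of all genes. The medians of the arms were 0.13 and 0.25, against 0.048 for all genes. Ndufa3, an accessory subunit, had the lowest ratio of the membrane arm, at 685 and 589 CPM (log2 ratio −0.22, −0.29 to −0.15). The highest was that of Ndufab1, the acyl carrier subunit, at 380.1 and 500.0 CPM (log2 ratio 0.40, 0.31 to 0.48). The next to these were Ndufa1 at −0.07 and Ndufa10 at 0.36. In the matrix arm Ndufa9, which lies near the quinone site, was at 134 and 210.0 CPM (log2 ratio 0.65, 0.51 to 0.80), and Ndufv1, the subunit that binds the flavin, had 0.51. Ndufa7 at −0.025 and Ndufv3 at 0.047 were lowest.

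The 16 assembly factors of complex I also held none past 1, where 4.68% of all genes were past 1. All 16 had a ratio above 0, with a median of 0.44. Above 0 were also 15 of 16 matrix arm and 16 of 20 nuclear membrane arm subunits, and 6072 of all 11400 genes. Among those with at least 100 UMIs, Ndufaf8 at 0.83 (0.65 to 1.02) and Ndufaf1 at 0.64 (0.31 to 0.996) had the highest ratios, and Ndufaf2 at 0.12 and Timmdc1 at 0.30 the lowest. Of 25 genes that transcribe or handle mitochondrial RNA, 0 were past 1, again beside 4.68% of all genes, and the median was 0.45. Polrmt, the mitochondrial RNA polymerase, had 38 and 91 UMIs and −0.047 (−0.61 to 0.54). Tfam, which packs mitochondrial DNA and starts its transcription, was at 24.2 and 35.0 CPM (log2 ratio 0.53, 0.19 to 0.88).

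The mRNA-stabilizing partners Lrpprc and Slirp were at 0.22 (−0.23 to 0.68) and 0.31 (0.18 to 0.43). Fastk, whose mitochondrial form is needed for mt-Nd6 mRNA, was at 94.96 and 139 CPM (log2 ratio 0.55, 0.38 to 0.73), and Grsf1 of the mitochondrial RNA granules at 0.30 (−0.13 to 0.75). Trmt10c, a part of mitochondrial RNase P, had the highest ratio of this list among genes with at least 100 UMIs, 0.99 (0.60 to 1.40), followed by Fastkd2 at 0.80, and Mterf1a the lowest with −0.67 (−1.12 to −0.22), before Supv3l1 at −0.05. Of 8 genes that copy mitochondrial DNA, 1 was past 1, the nuclease Mgme1, at 1.07 (0.60 to 1.57), where 4.68% of all genes were past 1. Polg, the mitochondrial DNA polymerase, was lower at −0.59 (−0.90 to −0.28), Ssbp1 was at 0.21 and Top1mt at 0.92. Beside these, 17 of 20 genes of the integrated stress response (ISR) were past 1, with Gdf15 at 1 and 898 UMIs, Asns at 1 and 678, and the lowest ratios at 0.11 for Ddit4 and 0.62 for Phgdh.

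Across the 12 profiles of 6 classes in 2 libraries, the sum of the 7 members was most like mt-Nd4, mt-Co3 and mt-Nd1 in pattern, with Pearson correlations of log2(CPM + 1) of 0.98, 0.97 and 0.97 (n = 12 profiles). mt-Nd5 (0.82), mt-Nd2 (0.67), mt-Nd3 (0.53), mt-Nd4l (0.43) and mt-Nd6 (0.21) followed the sum less closely, the lower ones on few UMIs. The members are part of the sum, and mt-Nd1 and mt-Nd4 hold most of it. Among 4071 nuclear genes, AU022252 (0.85), Tmed7 (0.83), Dcaf6 (0.80), Slc25a1 (0.78), the mitochondrial citrate carrier, and Cox17 (0.74), a copper chaperone of complex IV, were most like it. Their Spearman correlations were 0.76, 0.78, 0.71, 0.57 and 0.85, and of the 5 Cox17 had the highest rho. Some of these values rest on few UMIs. In ependymal-like CT cells AU022252 and Slc25a1 were at 27.4 CPM, the floor of 3 counts there. The levels of AU022252 spanned 1.06 on the log2 scale over the 12 profiles. In NSC pool-like cells Cox17 was at 225 CPM in the CT and 168 CPM in the Opa1 cKO library, and Tmed7 at 256 and 173 CPM. The 12 profiles share libraries and differ in depth.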

How the data were processed

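The CT and the Opa1 cKO library of sorted YFP+ cells were made with the 10x Genomics 3′ v2 assay. The authors aligned reads to mm10 and counted UMIs per gene and barcode. The deposited values are raw counts without normalization, per the labels from Cell Ranger 2.1.1, while the headers of the deposited matrices name software version 3.1.0. The annotation used for counting is not given in the sources used here. Library totals were 10799936 and 18662032 UMIs, and 3759343 and 9298106 UMIs in NSC pool-like cells.

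Counts of rows with the same symbol were summed. After the study's methods, with detectable YFP taken as at least 1 UMI, cells were kept if they had over 600 genes but not 7500 or more, less than 20% mitochondrial UMIs and YFP. They were normalized with SCTransform and clustered on 8 dimensions at a resolution of 0.2, without the 13 mitochondrial mRNAs (R 4.3.3, Seurat 5.3.0, sctransform 0.4.2, with python 3.11.15, numpy 2.4.6, scipy 1.17.1 and pandas 2.3.3 for the other steps). Clusters were named from marker lists. The 50 genes with the highest fold (10 CPM added) decided the type by the number of its markers they held, and the name stood where a log2 fold over 1 was reached by 3 or more markers that made up at least 33.3% of the list. The fold was first taken over all other cells and, for clusters left without a name, over the clusters named first. This rule was set after the clusters had been seen. Doublets were not called, and cells with 7500 or more genes were left out.

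UMIs were summed per library and class. Intervals are at 95%, exact Poisson for CPM and Clopper-Pearson for shares. For log2 ratios the Clopper-Pearson bounds of the Opa1 cKO part of both counts were converted. The ratio and its interval were tested on simulated Poisson counts, which held no spread between cells or mice. That test therefore checks the computation and not how well the intervals cover these data. With 1 library per genotype no test or p-value was computed. A gene with 0 UMIs was set at 3 counts. Transcripts were aligned to each other with blastn, and sequences and coordinates are from GENCODE M21.

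The members, gene lists, marker lists and tests were chosen with earlier results of these data known. Named genes were the members, the 6 other mitochondrial mRNAs, Opa1, the 5 nuclear genes with the highest correlation among those with at least 300 UMIs in all and 3 in each profile, the 2 highest and 2 lowest of each list among genes with at least 100 UMIs, and Fastk, Grsf1, Lrpprc, Slirp, Tfam and Polrmt. Other genes were chosen after their values were seen. Alternatives concerned filters, clustering, denominator, weighting and depth.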

Additional observations from a re-analysis of the deposited data

Results flagged for a closer look

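In 3 instances a member was higher in Opa1 cKO in 1 class and lower in another, with counting intervals that excluded 0 in each, and the difference between classes was not tested. mt-Nd2 had a log2 ratio of 0.41 in oligodendrocyte-like cells, against −0.81 in NSC pool-like, −0.56 in ependymal-like and −0.42 in mural-like cells. mt-Nd3 had 1.09 in oligodendrocyte-like cells, on 41 and 132 UMIs, against −0.68 in NSC pool-like cells. mt-Nd4l had 0.84 in progenitor and neuron-like cells, on 24 and 93 UMIs, against −1.53 in ependymal-like cells. At a resolution of 0.4 the ratio of mt-Nd4l in progenitor and neuron-like cells was 0.32 (−0.46 to 1.14), with an interval that held 0, and NSC pool markers in the progenitor and neuron-like class summed to 7460.2 and 18251 CPM in CT and Opa1 cKO. Each class was 1 pool of cells per genotype.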

How the results depend on the processing

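The values for NSC pool-like cells were recomputed under 14 alternatives (12 for the complex I part and the median share, where another denominator or weighting was not applied), of which leaving out the barcodes found in both libraries and taking clusters 1 and 2 alone were chosen after seeing the data. The log2 ratio of the complex I sum was below 0 in all 14. From −1.30 it moved past its counting interval to −1.07 with cells without a YFP UMI kept, −1.07 with every barcode of more than 200 genes, −1.27 at a resolution of 0.4, −1.19 in all kept cells, −1.35 with UMIs outside the mitochondrial mRNAs as denominator, −1.27 with each cell at the same weight, −1.25 after thinning to 1500 UMIs, −1.13 in cells of 2000 to 4000 UMIs and −0.24 in clusters 1 and 2 alone. The distance between the lowest and highest member, 1.32, moved to 1.06 and 1.06 with the first 2 of these and to 0.72 in clusters 1 and 2. The difference in the complex I part of mitochondrial mRNA, 2.91 percentage points, moved to 2.16, 2.097, 2.41 (clustering on all genes), 2.50 (resolution of 0.4), 2.61 (log-normalization), 2.63 (cells of 2000 to 4000 UMIs) and 0.62 (clusters 1 and 2). The difference in the median share per cell, −0.84 points, moved to −0.71 in all kept cells and to −0.15 in clusters 1 and 2. In clusters 1 and 2 mt-Nd2 (0.045), mt-Nd3 (0.33) and mt-Nd4l (0.41) changed direction, and with each cell at the same weight mt-Nd4l did so at 0.0071. mt-Nd1, mt-Nd4, mt-Nd5 and mt-Nd6 were below 0 in all 14. Taking clusters 1 and 2 leaves out most Opa1 cKO cells by construction, and the causes of the other moves were not tested. With at least 100 in place of 20 UMIs, 0 nuclear complex I subunits and assembly factors were past a log2 ratio of 1 in either direction, as before. Of all 8936 genes with as many UMIs, 179 were past −1 and 244 past 1. Counts of 0 in lists this short are therefore near the shares of all genes here too.

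No paired analysis was possible because each group was 1 library. Leaving out a replicate was likewise not done, and mice, sorting and library preparation cannot be told apart from genotype. mt-Nd6, with 58 and 108 UMIs in NSC pool-like cells, is limited by its few counts, and so are classes with few CT cells. Over all barcodes, with no filter and no class, mt-Nd6 had a log2 ratio of −0.50 (−0.80 to −0.20) on 170 CT and 208 Opa1 cKO UMIs. These barcodes may differ in cell type between the libraries.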

Other observations

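The change in make-up with the mitochondrial share was also seen in Opa1 cKO cells outside the NSC pool. In the other classes together, complex I gave 33.9% (31.4 to 36.5) of mitochondrial UMIs in 126 cells with a share under 0.5%, 23.9% (23.0 to 24.7) at 1 to 2% and 18.8% (18.4 to 19.3) at 4 to 8%, where CT had 17.3% (17.0 to 17.7). In ependymal-like Opa1 cKO cells it was 35.0% (31.9 to 38.2) under 0.5% and 29.1% (27.2 to 31.0) at 1 to 2%. Mural-like Opa1 cKO cells were at 35.8% (28.4 to 43.7) under 0.5% on 162 mitochondrial UMIs, and at 20.9% (19.4 to 22.6) at 4 to 8%.

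The lengths of the runs of A that could bind the oligo(dT) primer inside a transcript differed between members. The longest had 8 bases in mt-Nd2, 7 in mt-Nd4 and mt-Nd5, 6 in mt-Nd1 and 3 in mt-Nd6, and the longest run of mt-Nd2 lay 892 bases from its end. Across the 13 mitochondrial mRNAs the length of the longest run and the log2 ratio in NSC pool-like cells had a Spearman correlation of −0.37 (n = 13 genes, which share 2 libraries). Over the 7 members alone it was −0.68 (n = 7), beside −0.89 for the CT level in CPM, −0.68 for that level per kilobase and −0.79 for transcript length.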
